A study of Mesocricetus auratus with 24 samples.

Results

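Npas4 and 9 effectors of synaptic activity were described in the inferior colliculus (IC), the auditory midbrain nucleus, of 24 hamsters. The 10 genes were found by symbol among 19938 genes with a probe set of 1 gene symbol, and each had 1 such probe set, so the 10 members gave 10 rows of values. All 10 symbols also occur in the RefSeq gene table of the Syrian hamster (assembly BCM_Maur_2.0). The animals were GASH:Sal hamsters, a strain that has seizures in response to loud sound, and control Syrian hamsters, with 12 of each strain, all aged 16 weeks. Within each strain 6 animals were exposed to auditory stimulation and 6 received none (naive). This split follows each sample's own exposure label and the series design; the general treatment protocol in the labels instead words controls as given the same stimulation, and if the naive animals had heard the sound, each stimulated minus naive value below would mean something else. The 4 groups of 6 arrays were therefore stimulated GASH:Sal, naive GASH:Sal, stimulated Syrian and naive Syrian. The IC was collected at a single time, 60 min after the seizures in the protocol's words. GASH:Sal is a bred strain and not a single mutation, and strain differences cannot be assigned to 1 gene here. Because GASH:Sal is the strain with seizures, the response to sound in its stimulated animals cannot be told apart from a response to seizure. Seizure and strain likewise cannot be told apart in the comparison of stimulated groups or in the difference between the strains' responses.

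Npas4 is a transcription factor of neurons that is switched on by calcium entry after synaptic activity. It drives genes that shape inhibitory and excitatory synapses, and Bdnf is a well-known target in mouse neurons. Arc, Homer1, Nptx2, Nrn1, Plk2, Ptgs2, Gadd45b and Bdnf encode proteins that act at synapses, in signalling or on chromatin and that neurons make after activity, while Ntrk2 encodes TrkB, the receptor for BDNF.

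Hamster RNA was read with mouse whole-transcript arrays, so a probe set gives a relative log2 signal. Levels of different genes were not read as relative amounts of RNA, and where signals are ranked among genes the rank describes the brightness of the probe set only. Array medians lay between 4.50 and 4.65 on the log2 scale. The labels name animals in 2 styles, here series A (replicates 1 to 3 of each group) and series B (replicates 4 to 6), whose meaning the sources used here do not state. Stimulated Syrian 4 and naive GASH:Sal 6 correlated least with the arrays of their own group and series (mean r of 0.969 and 0.972, against 0.979 to 0.991 for the others). The mean of 5 neuron markers was between 8.17 and 8.52 on all 24 arrays. In bulk tissue, fewer cells of a type and less RNA per cell cannot be told apart.

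In stimulated GASH:Sal hamsters, Npas4, Homer1, Bdnf and Nptx2 had higher signals than in naive GASH:Sal hamsters, by 0.21 to 0.59 on the log2 scale. In stimulated Syrian hamsters, Homer1 and Plk2 stood higher than in naive Syrian hamsters, by 0.25 and 0.24. The genes of both strains were named here by an unadjusted p under 0.05 (limma). Npas4 had a larger difference than Homer1 and Plk2 in Syrian hamsters, 0.27 (SE 0.175), but its unadjusted p was 0.132 (limma). None of these differences passed the adjusted test over all genes (limma, Benjamini-Hochberg adjusted p under 0.05). The test called 0 of 19938 genes (0%) for sound in either strain, with 889 genes at an unadjusted p under 0.05 in GASH:Sal and 1323 in Syrian hamsters. A SAM-type statistic called 2 and 1 genes.

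Npas4, the inducer, had signals from 5.05 to 6.48 with a median of 5.89 in stimulated GASH:Sal hamsters, against 5.02 to 5.34 with a median of 5.22 in naive GASH:Sal hamsters. Of the stimulated arrays, 5 of 6 lay above the highest naive array, and replicate 2 lay within the naive range. The means were 5.81 ± 0.520 in stimulated and 5.22 ± 0.120 in naive GASH:Sal hamsters (SD, n = 6 each). The difference was 0.59 (SE 0.175, 1.51-fold, limma adjusted p = 0.999). In stimulated Syrian hamsters Npas4 ran from 5.16 to 6.33 with a median of 5.40, against 4.89 to 5.53 with a median of 5.23 in naive Syrian hamsters. Only replicate 2 of the stimulated Syrian arrays lay above all naive Syrian arrays, and the other 5 overlapped them. The difference of 0.27 (SE 0.175, limma adjusted p = 0.806) was 0.11 without that replicate. The GASH:Sal response minus the Syrian response was 0.32 (95% interval -0.19 to 0.83, limma adjusted p = 1), so an unequal response was not shown. It lay between 0.19 and 0.49 when 1 array was left out.

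The order of the Npas4 group means was stimulated GASH:Sal, stimulated Syrian, naive Syrian and naive GASH:Sal. The stimulated GASH:Sal and stimulated Syrian groups differed by 0.32 (SE 0.175, limma adjusted p = 0.901), which was 0.19 without stimulated GASH:Sal 3 and 0.49 without stimulated GASH:Sal 2. Naive GASH:Sal and naive Syrian hamsters had the same mean of 5.22. Npas4 was also the most variable member: its residual SD of 0.362 was larger than that of 99.2% of all genes. The SD of the stimulated arrays was 4.33 times that of the naive arrays in GASH:Sal hamsters and 1.90 times in Syrian hamsters. The SE of 0.175 rests on 1 residual SD shared by all 4 groups, so the SEs and intervals for Npas4 do not reflect this unequal spread.

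**Figure D1:**
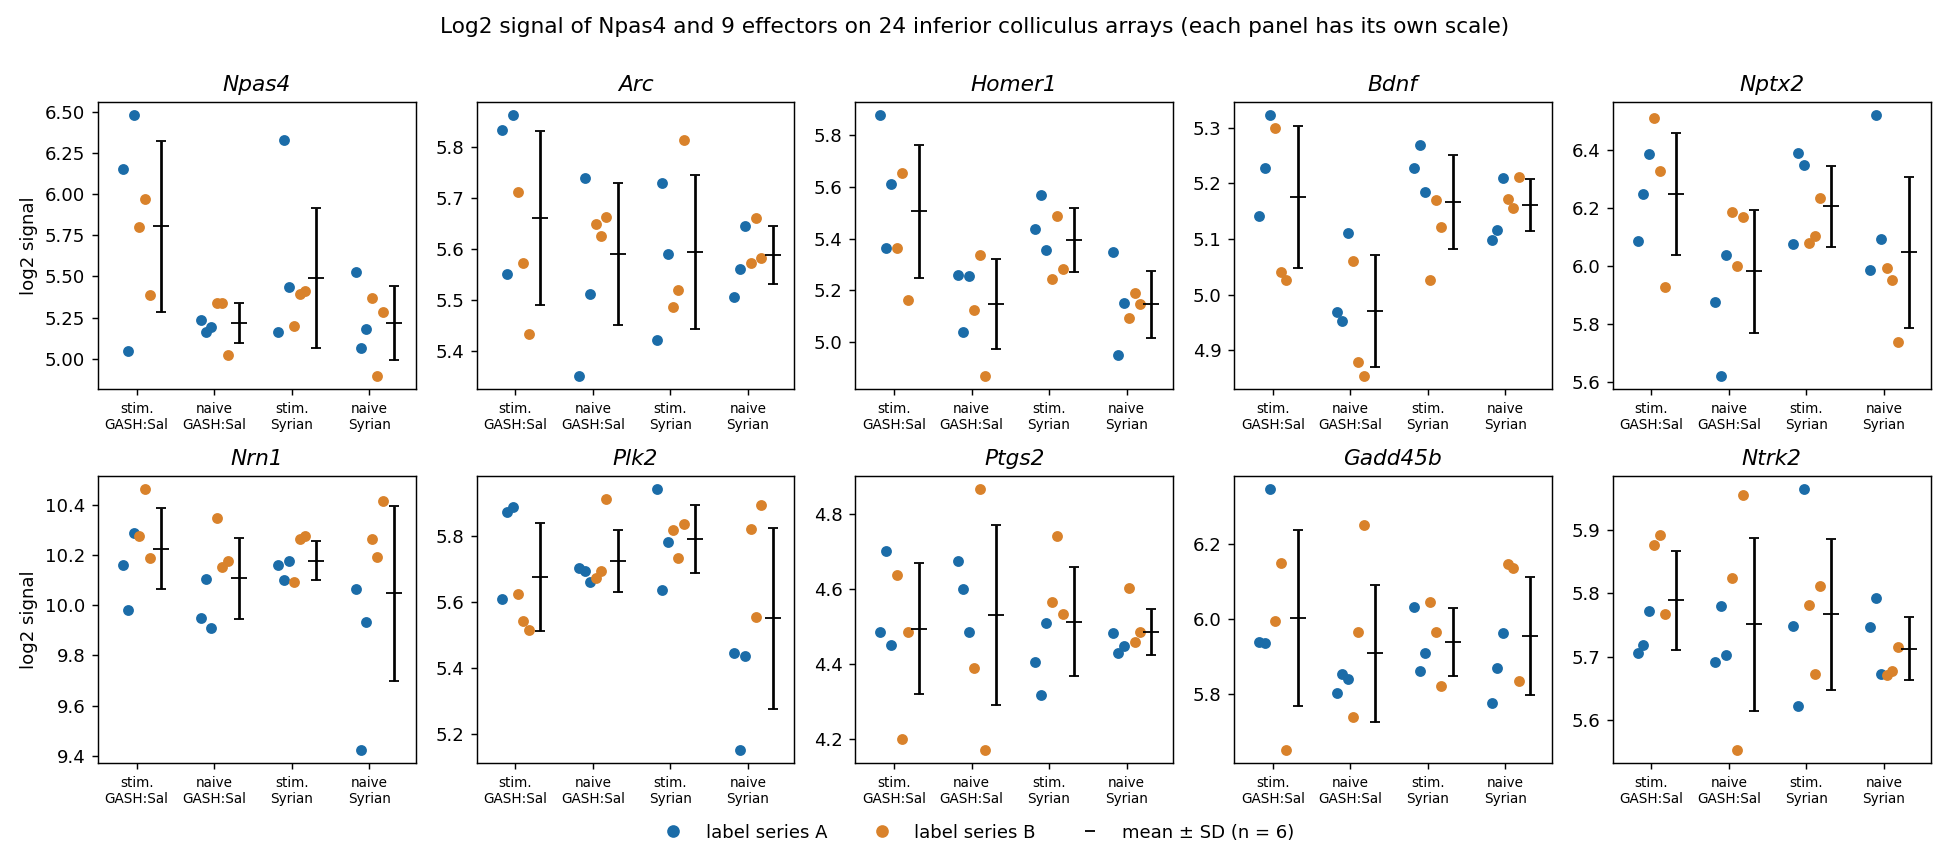
Log2 signal (vertical axis, own scale in each panel) of the 10 genes in stimulated and naive GASH:Sal and stimulated and naive Syrian hamsters; points are arrays coloured by label series, and bars give mean ± SD (n = 6). Npas4 spreads from 5.05 to 6.48 in stimulated GASH:Sal hamsters, against 5.02 to 5.34 in naive GASH:Sal hamsters.

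Homer1 encodes a scaffold of the postsynaptic density, and its short form is made after activity and loosens that scaffold. Its signals ran from 5.16 to 5.88 with a median of 5.49 in stimulated GASH:Sal hamsters, against 4.87 to 5.34 with a median of 5.19 in naive GASH:Sal hamsters. In stimulated Syrian hamsters they ran from 5.24 to 5.57 with a median of 5.40, against 4.95 to 5.35 with a median of 5.15 in naive Syrian hamsters. All 6 stimulated arrays of each strain lay above the naive mean of that strain, and 5 of the 6 GASH:Sal arrays and 4 of the 6 Syrian arrays lay above the highest naive one. The difference was 0.36 in GASH:Sal (SE 0.0964, limma adjusted p = 0.999) and 0.25 in Syrian hamsters (SE 0.0964, limma adjusted p = 0.719). Averaged over both strains it was 0.30 (SE 0.0682, limma adjusted p = 0.143) and had the lowest adjusted p of the 10 genes. This averaged difference passed the adjusted test in series A alone (0.37, adjusted p = 0.0364), where 444 of 19938 genes were called, and without stimulated GASH:Sal 6 (0.33, adjusted p = 0.0482). In series B alone it was 0.24 and did not pass (adjusted p = 0.897), and over all alternatives its adjusted p ran from 0.0364 to 0.897. Which isoforms the probe set reads was not examined.

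Bdnf encodes the neurotrophin BDNF. Its signals ran from 5.03 to 5.32 with a median of 5.18 in stimulated GASH:Sal hamsters, against 4.85 to 5.11 with a median of 4.96 in naive GASH:Sal hamsters. All 6 stimulated arrays lay above the naive mean and 4 lay above the highest naive array. The difference was 0.21 (SE 0.0676, 1.15-fold, limma adjusted p = 0.999). In Syrian hamsters Bdnf averaged 5.17 ± 0.0850 after sound and 5.16 ± 0.0470 without it (SD, n = 6 each), a difference of 0.01 (95% interval -0.13 to 0.14). Between the naive groups, naive GASH:Sal hamsters lay at 4.85 to 5.11 and naive Syrian hamsters at 5.10 to 5.21. Of the naive GASH:Sal arrays 5 of 6 were below the lowest naive Syrian array. The difference was -0.19 (SE 0.0676, limma adjusted p = 0.764). After sound the strains averaged 5.18 ± 0.128 in GASH:Sal and 5.17 ± 0.0850 in Syrian hamsters. The naive GASH:Sal arrays enter both the sound difference and the naive strain difference, so these are not separate pieces of evidence. For Bdnf the GASH:Sal response minus the Syrian response was 0.20 (SE 0.0956, 95% interval 0.00 to 0.39, limma adjusted p = 1).

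Nptx2 encodes a secreted pentraxin that gathers AMPA receptors at excitatory synapses. It ran from 5.93 to 6.51 with a median of 6.29 in stimulated GASH:Sal hamsters, against 5.62 to 6.19 with a median of 6.02 in naive GASH:Sal hamsters, and 4 of 6 stimulated arrays lay above all naive ones. The difference was 0.27 (SE 0.112, limma adjusted p = 0.999), and it was 0.16 in Syrian hamsters (SE 0.112, limma adjusted p = 0.822). The GASH:Sal value was 0.39 in series A and 0.14 in series B, and the Syrian value was 0.07 (A) and 0.25 (B). The Syrian value was 0.10 without naive Syrian 6 and 0.25 without naive Syrian 2. Naive GASH:Sal minus naive Syrian was -0.35 in series A and 0.22 in series B, so the naive arrays also differed by series. All 6 stimulated Syrian arrays lay above the naive Syrian mean, but none exceeded naive Syrian 2, which stood at 6.52.

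Plk2 encodes a kinase that acts in the scaling of synapses after long activity. In stimulated Syrian hamsters it ran from 5.64 to 5.94 with a median of 5.80, against 5.15 to 5.89 with a median of 5.50 in naive Syrian hamsters. The naive Syrian arrays separated by series, with 3 arrays of series A between 5.15 and 5.45 and 3 of series B between 5.56 and 5.89. The difference of 0.24 (SE 0.0966, limma adjusted p = 0.719) was 0.44 in series A and 0.04 in series B. In GASH:Sal hamsters Plk2 averaged 5.68 ± 0.164 after sound and 5.72 ± 0.0936 without it (SD, n = 6 each), a difference of -0.05 (SE 0.0966). That difference was 0.10 in series A and -0.20 in series B. Naive GASH:Sal minus naive Syrian was 0.17 (SE 0.0966), with 0.34 in series A and 0.002 in series B. The naive Syrian arrays enter the Syrian response, this strain difference and the difference between the responses, so these are not separate pieces of evidence. The responses of the strains differed by -0.29 (SE 0.137, limma adjusted p = 1), with -0.34 in series A and -0.24 in series B.

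The other effectors showed differences of 0.13 or less in either strain. Nrn1, which encodes neuritin, a membrane-anchored protein of neurite growth, differed by 0.12 in GASH:Sal and 0.13 in Syrian hamsters (SE 0.0953 each), and the Syrian value was 0.02 without naive Syrian 2, its lowest array at 9.42. Arc, whose product drives the removal of AMPA receptors from synapses, differed by 0.07 in GASH:Sal (95% interval -0.10 to 0.24) and 0.01 in Syrian hamsters (95% interval -0.17 to 0.18). Gadd45b, linked to DNA demethylation and the stress response, differed by 0.09 and -0.02 in GASH:Sal and Syrian hamsters (SE 0.0971 each), and the GASH:Sal value was 0.02 without stimulated GASH:Sal 3. Ptgs2, the inducible cyclooxygenase, differed by -0.04 in GASH:Sal and 0.03 in Syrian hamsters (SE 0.0959 each), and Ntrk2 by 0.04 and 0.05 (SE 0.0717 each). Ptgs2 was the dimmest member, with a mean of 4.50 over all arrays, at percentile 39.3 of all genes. For it a lack of response and a lack of signal cannot be told apart. Arc stimulated arrays overlapped the naive arrays in both strains, with medians of 5.64 in both stimulated and naive GASH:Sal hamsters.

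**Figure D2:**
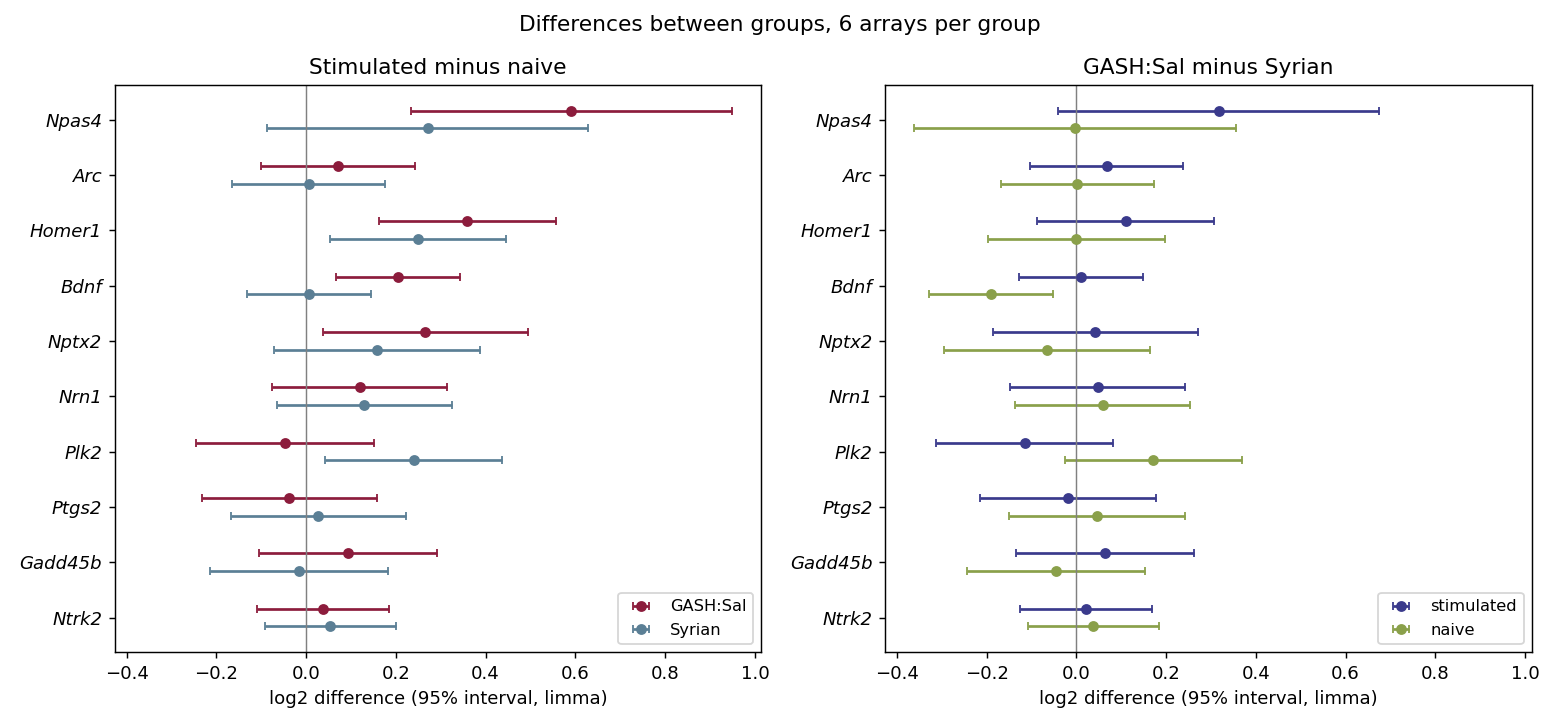
Log2 differences with 95% intervals (limma) of the 10 genes; the left panel gives stimulated minus naive in GASH:Sal and Syrian hamsters, and the right panel GASH:Sal minus Syrian in stimulated and naive hamsters. The interval for Npas4 in GASH:Sal runs from 0.23 to 0.95, and that for Bdnf between naive groups runs from -0.33 to -0.05.

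As a group, 8 of the 10 genes were higher after sound in GASH:Sal hamsters, with a median of 0.11, against a median of 0.01 and 55.8% above 0 over all genes. In Syrian hamsters 9 of 10 were higher, with a median of 0.09, against 0.02 and 57.5% over all genes. The GASH:Sal median was 0.06 without stimulated GASH:Sal 3 and 0.16 without stimulated GASH:Sal 6, and the Syrian median was 0.05 without naive Syrian 2. At an unadjusted p under 0.05, 4 members were higher in stimulated GASH:Sal hamsters, against a background of 2.88% of all genes in that direction, and 2 members were higher in stimulated Syrian hamsters, against 4.35%. The averaged response had 4 members (Npas4, Homer1, Bdnf and Nptx2) against 5.22%. For the interaction of strain and sound, 1 member (Bdnf) was positive and 1 (Plk2) negative, against 1.75% and 1.93%, and between naive groups 1 (Bdnf) was lower in GASH:Sal, against 3.74%. After sound no member (0 of 10) reached an unadjusted p under 0.05 between the strains by limma, against 5.42% of all genes (1080 genes). Npas4 did so in series B alone, and also when either stimulated Syrian 2 or stimulated GASH:Sal 2 was left out. The Syrian count was 1 without naive Syrian 2, when Homer1 and Plk2 dropped out and Nptx2 entered, 1 (Homer1) without stimulated Syrian 1, and 0 in series B alone. Nptx2 dropped out of the GASH:Sal count, leaving 3, when any 1 of 4 arrays (naive replicates 1 and 2, stimulated replicates 3 and 4) was left out, and the count was 1 (Npas4) in series B alone. With 1 array left out the averaged response had 3 to 5 members, and in the interaction Bdnf, Plk2 or both dropped out for most of the arrays. Npas4 entered the interaction without stimulated Syrian 2, and likewise without stimulated GASH:Sal 2. The counts stood without stimulated Syrian 4 and naive GASH:Sal 6, except that the interaction then had 0 members and the averaged response 5, with Nrn1 added.

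The response was larger in series A than in series B for 8 of 10 members in GASH:Sal and for 7 of 10 in Syrian hamsters. Over all genes the shares were 52.1% in GASH:Sal and 43.5% in Syrian hamsters. For Npas4 it was 0.69 (A) and 0.49 (B) in GASH:Sal hamsters, against 0.39 (A) and 0.15 (B) in Syrian hamsters. Homer1 gave 0.43 and 0.28 in GASH:Sal and 0.31 and 0.19 in Syrian hamsters, and Npas4, Homer1, Nptx2 and Ntrk2 were above 0 in both series of both strains. In GASH:Sal hamsters the 9 effectors had a median of 0.21 in series A, and it was 0.07 in series B. Arc in GASH:Sal hamsters gave 0.21 (A) and -0.07 (B), and Gadd45b gave 0.24 (A) and -0.05 (B). Over both strains the series differed most for Plk2 (0.35, SE 0.112, limma adjusted p = 0.199), and the adjusted test separated none of the members between the series.

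Within each stimulated array, Npas4 was set against the effectors as the deviation from the naive mean of the same strain and series. Each naive mean rests on 3 arrays, and how fully each mouse probe set shows a change in hamster RNA was not tested. In stimulated GASH:Sal hamsters Npas4 deviated more than all 9 effectors in 5 of 6 arrays. The exception was replicate 2, where Npas4 stood at -0.15, below all 9 effectors, whose mean was 0.13. In stimulated Syrian hamsters Npas4 exceeded all 9 effectors in 1 of 6 arrays, replicate 2, where it stood at 1.08 against an effector mean of 0.14. Npas4 minus the effector mean averaged 0.472 ± 0.456 in stimulated GASH:Sal and 0.176 ± 0.399 in stimulated Syrian hamsters (SD, n = 6 each), so the SD was about as large as the mean or larger. Effector means were 0.28 at the highest, in stimulated GASH:Sal 3, where Npas4 stood at 1.28.

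**Figure D3:**
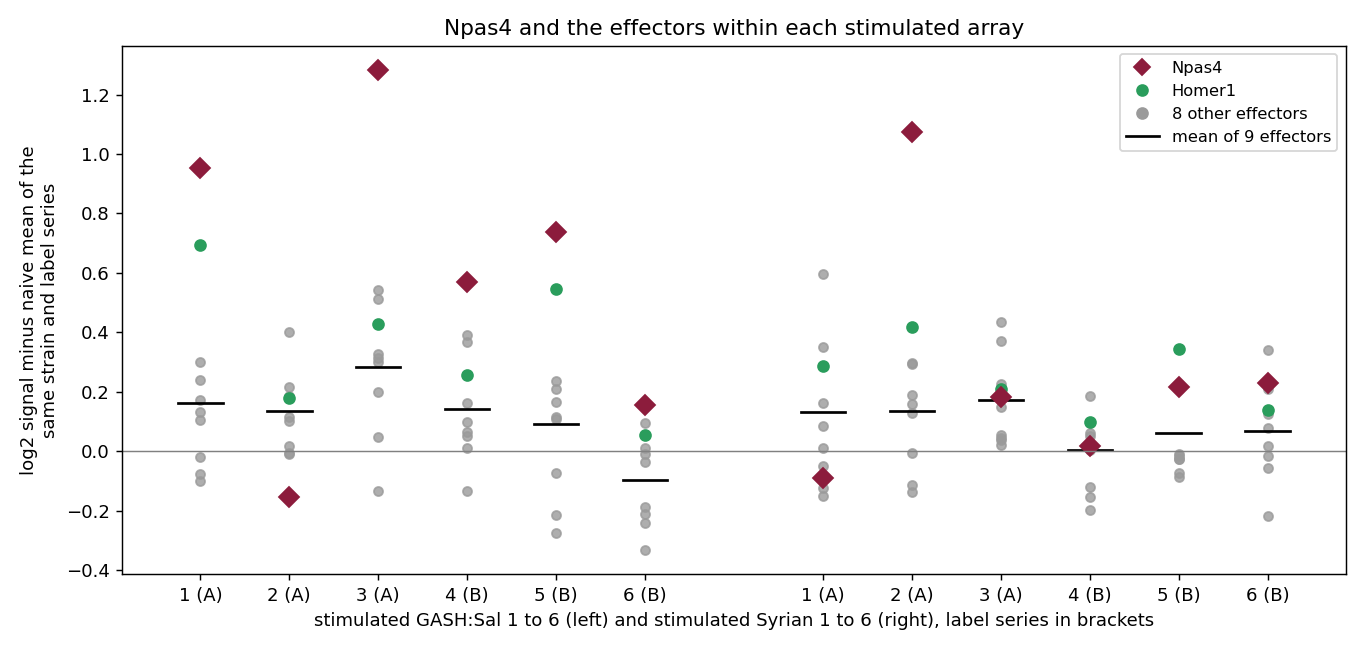
Deviation of Npas4 (diamonds), Homer1 and the 8 other effectors from the naive mean of the same strain and label series (log2, vertical axis) in each of 6 stimulated GASH:Sal (left) and 6 stimulated Syrian (right) arrays. Npas4 is above all effectors in 5 of 6 GASH:Sal arrays and in 1 of 6 Syrian arrays.

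Across all 24 arrays, after the mean of each group and series had been removed, Npas4 varied with Homer1 (Pearson r = 0.612, permutation p = 0.00983, adjusted over 9 effectors 0.0745, and Spearman rho = 0.659, permutation p = 0.00608, adjusted 0.0547). Without the 2 arrays farthest from the Npas4 median, stimulated GASH:Sal 3 and stimulated Syrian 2, r was 0.75, and within the series it was 0.665 (A) and 0.637 (B). For Nrn1 r was 0.47 (permutation p = 0.0165, adjusted 0.0745) and rho 0.57 (permutation p = 0.015, adjusted 0.0674), with r of 0.575 without the 2 farthest arrays. Arc gave r = 0.53 (permutation p = 0.0424, adjusted 0.127) and rho = 0.367 (permutation p = 0.149, adjusted 0.448), and its r was 0.365 without the 2 farthest arrays. The other 6 effectors had r between -0.195 and 0.245, with Bdnf at 0.245 (permutation p = 0.322, adjusted 0.64). None of the 9 relations passed the adjusted threshold. All values of an array share 1 hybridisation, so RNA and array quality are common to both genes of a pair, and their part in these relations was not tested.

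**Figure D4:**
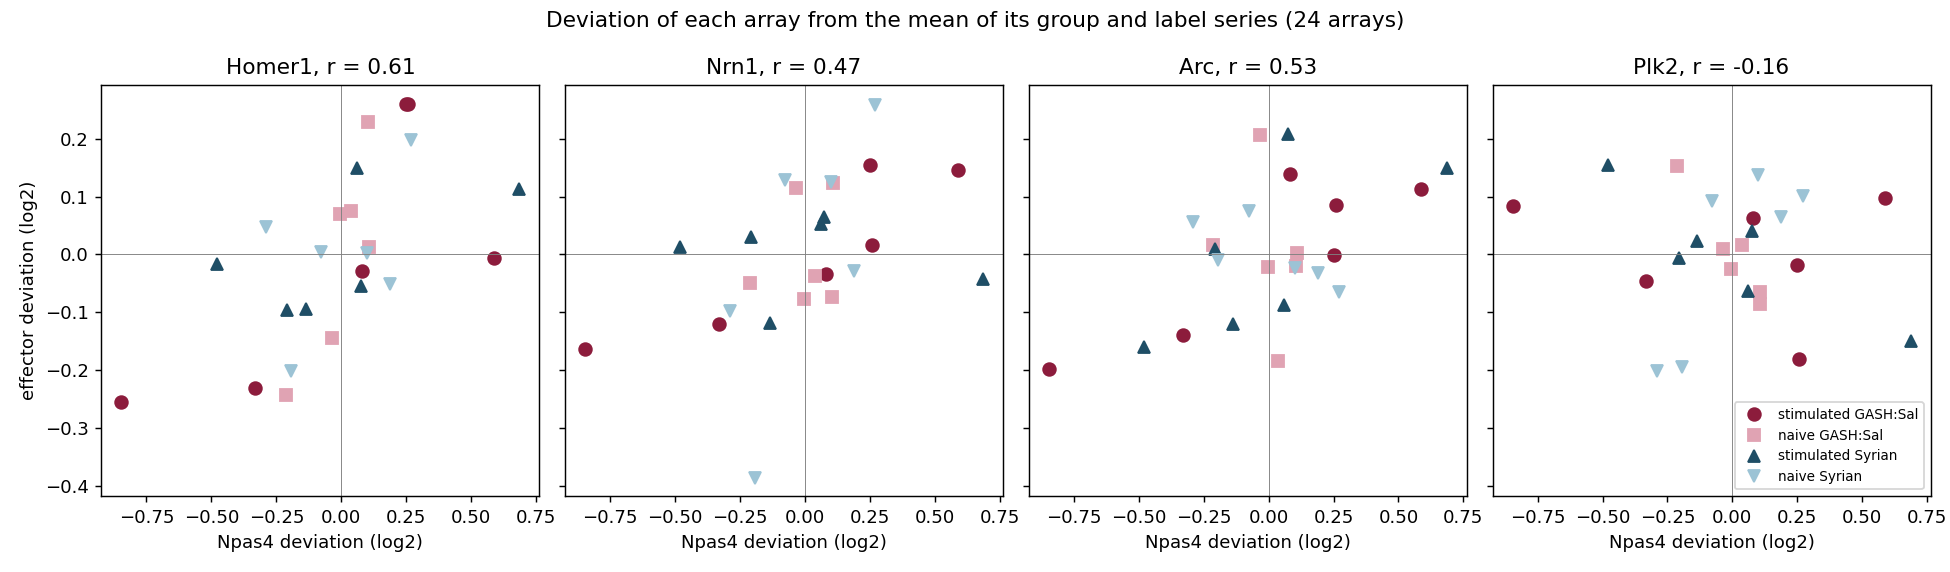
Deviation of Homer1, Nrn1, Arc and Plk2 (vertical axis, log2) against that of Npas4 (horizontal axis, log2) from the mean of each array's group and label series, 24 arrays. The points slope upward for Homer1 (r = 0.61) and show no slope for Plk2 (r = -0.16).

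With only the series means removed, so that group differences count too, the genes most like Npas4 over 24 arrays were Egr2 (r = 0.930), Klf7 (0.866), Nr4a1 (0.846), Rgs2 (0.840) and Fosb (0.828). Egr2, Klf7, Nr4a1 and Fosb encode transcription factors and Rgs2 a regulator of G-protein signalling. Homer1 ranked 8 (r = 0.755) among all genes, Nrn1 ranked 91, Arc 163, Nptx2 665 and Bdnf 938. The least like it were Gadd45b, which ranked 3388 (r = 0.229), Plk2 8565 (r = 0.043), Ntrk2 9277 (r = 0.020) and Ptgs2 16098 (r = -0.196).

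Among the genes of related pathways, 20 of 23 activity-regulated transcription factors were higher after sound in GASH:Sal hamsters, against 55.8% of all genes, and 17 of 23 in Syrian hamsters, against 57.5%, with medians of 0.14 and 0.07. Of these, 10 were higher at an unadjusted p under 0.05 in GASH:Sal hamsters, against 2.88% of all genes, and 3 (Fos, Nr4a1 and Nr4a3) in Syrian hamsters, against 4.35%. Fos, a component of AP-1, differed by 0.68 in GASH:Sal hamsters (SE 0.119, limma adjusted p = 0.0576, 6 of 6 arrays above all naive ones) and by 0.48 in Syrian hamsters (adjusted p = 0.57). Averaged over both strains, Fos rose by 0.58 (limma adjusted p = 0.00222) and was the only gene called in that comparison (1 of 19938, 0.00502%). In GASH:Sal hamsters Egr2 differed by 0.69, Nr4a1 by 0.42, Egr4 by 0.40 and Nr4a3 by 0.36, and Nr4a1 differed by 0.36 and Nr4a3 by 0.24 in Syrian hamsters, none past the adjusted test (adjusted p of 0.719 to 0.999).

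The partners and upstream factors of Npas4 showed little difference, with a median over 14 genes of 0.02 (GASH:Sal) and 0.04 (Syrian), and 1 gene (Creb1, 0.25, adjusted p = 0.999) at an unadjusted p under 0.05 in GASH:Sal. The 24 other activity-regulated effectors had 13 above 0 in each strain, which is near the shares of all genes (55.8% in GASH:Sal and 57.5% in Syrian hamsters), with medians of 0.01 and 0.03. The counts of this list and the following ones at an unadjusted p under 0.05 stand against 2.88% (GASH:Sal) and 4.35% (Syrian) of all genes higher. For genes lower they stand against 315 (GASH:Sal) and 456 (Syrian) of 19938 genes. In GASH:Sal hamsters Nptx1 (0.30), a relative of Nptx2, and Pcsk1 (0.21), a prohormone convertase, were higher, and Lingo1 (-0.21) was lower, at an unadjusted p under 0.05 (limma adjusted p = 0.999 each), and in Syrian hamsters Dusp1 (0.26), a MAP kinase phosphatase, and Plat (0.19) were higher and Scg2 (-0.15) was lower. Of 14 relatives of the effectors, Gadd45g was higher in both strains, by 0.25 in GASH:Sal and 0.29 in Syrian hamsters (adjusted p = 0.999 and 0.719). Beside Nptx1, the relatives also past an unadjusted p of 0.05 were Gadd45a, at -0.18 in GASH:Sal hamsters (adjusted p = 0.999), and Plk3, at 0.19 in Syrian hamsters (adjusted p = 0.744). Of 12 postsynaptic partners of Homer1 and Arc, 0 in GASH:Sal and 1 (Gria1, 0.19) in Syrian hamsters reached an unadjusted p under 0.05. Of 13 genes of BDNF and TrkB signalling, the counts were 0 and 1 (Plat, which encodes a protease that can activate pro-BDNF). The 11 genes of the prostaglandin pathway held Ptger2, a receptor for prostaglandin E, higher by 0.20 in GASH:Sal and 0.22 in Syrian hamsters, and Ptgds, which differed by -0.29 in Syrian hamsters.

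**Figure D5:**
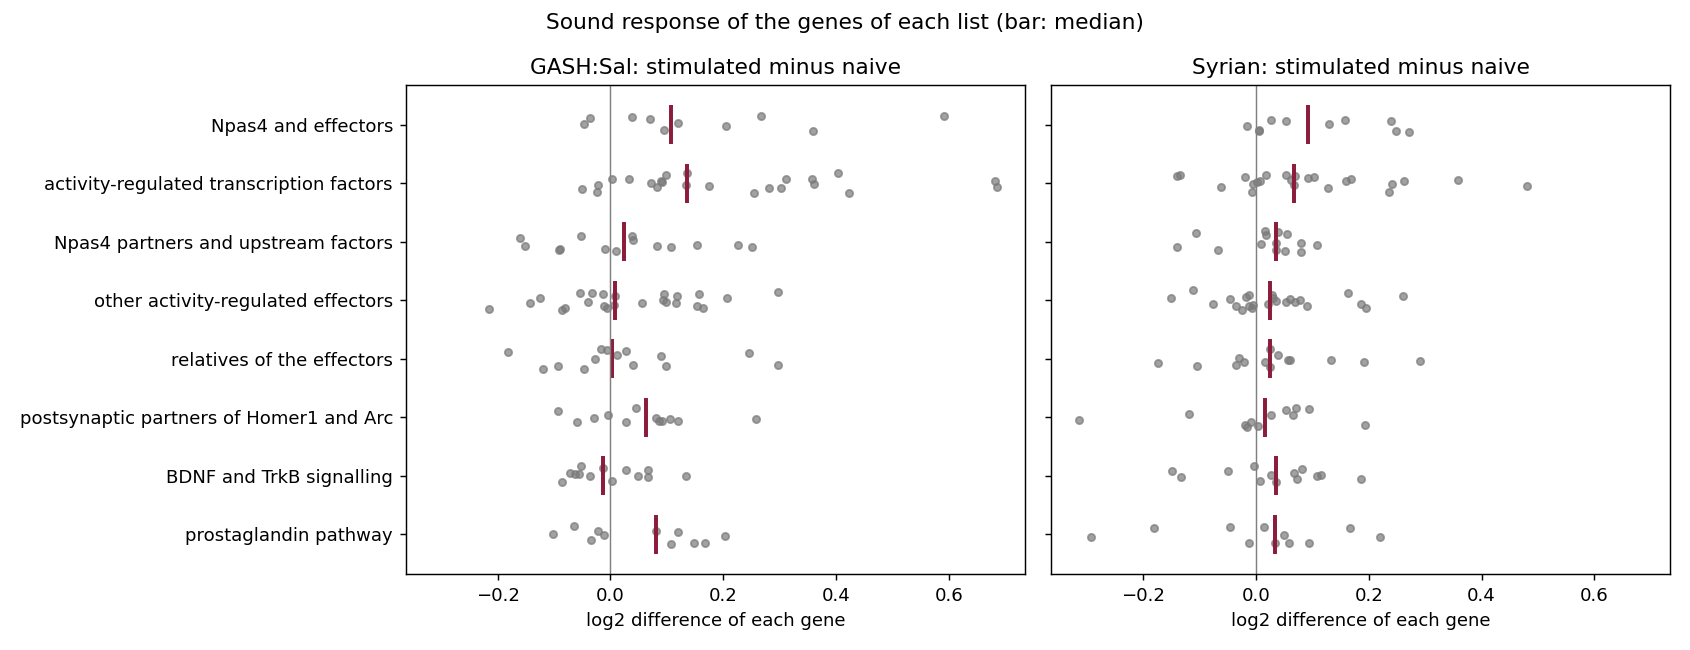
Log2 difference (horizontal axis) of each gene after sound in GASH:Sal (left) and Syrian (right) hamsters for Npas4 with its effectors and 7 pathway lists; points are genes and bars are medians. The list medians run from -0.01 to 0.14 in GASH:Sal hamsters.

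Markers of other cells were also measured beside the GASH:Sal sound response. All 4 measured oligodendrocyte markers were higher in stimulated GASH:Sal hamsters, by 0.06 to 0.22, with a mean level of 6.06 to 6.19 on stimulated and 5.83 to 6.12 on naive arrays. In Syrian hamsters 3 of 4 were higher, with a median of 0.08. Over all genes 55.8% (GASH:Sal) and 57.5% (Syrian) were higher. Averaged over both strains, 3 markers (Mobp, Mbp and Mog) were higher at an unadjusted p under 0.05 by limma, against 5.22% of all genes. Neuron markers had a mean level of 8.29 to 8.49 on stimulated and 8.17 to 8.52 on naive GASH:Sal arrays. En2, of the 5 cerebellum markers, was lower in stimulated GASH:Sal (-0.21) and higher in stimulated Syrian hamsters (0.21), while the 5 cerebellum markers had medians of 0.03 and 0.06. Between naive groups En2 was already higher in GASH:Sal hamsters, by 0.26. At an unadjusted p under 0.05 by limma, Gad1 was also lower in stimulated Syrian hamsters, Slc17a6 higher in the averaged response and Aif1 positive in the interaction. None of these passed the adjusted test. The part of the markers in the member differences was not tested.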

How the data were processed

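The authors deposited log2 signals of 35556 probe sets on 24 arrays. The submitters' processing notes name RMA, which corrects background, normalises between arrays and summarises probes, and give no version. Platform annotation gave 1 symbol for 21789 probe sets, several for 1621 and none for 12146. Each gene was represented by its brightest probe set on average, giving 19938 genes, with no filter on dim genes. Groups came from the sample labels. limma (version 3.58.1, R 4.3.3) was fitted to all 24 arrays with the 4 groups and label series (19 residual degrees of freedom), with two-sided p-values, Benjamini-Hochberg adjustment over all genes and a threshold of 0.05. Correlations used 100000 two-sided permutations within group and series. The labels call the arrays biological replicates. Array number limits precision: the median SE of a difference between 2 groups was 0.0895. The main fit did not pair arrays by replicate number. The fit was tested on simulated data with independent normal noise and 1 SD per gene in all groups, which cannot check unequal spread between groups. The alternatives covered the model, gene filter, scaling, weights, threshold and arrays left out. The members, lists and tests were chosen with earlier results of these data known. Genes named in the text are the members, the 5 genes most like Npas4, and up to 6 list genes per sound comparison by p; other names were chosen after their values were seen.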

Additional observations from a re-analysis of the deposited data

Results flagged for a closer look

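In 40 sets of 6 arrays (10 genes in 4 groups), 3 held an array far from the other 5, and chance gives about 1 in 20 sets. Npas4 stood at 6.331 in stimulated Syrian 2, with the next array at 5.437. Plk2 stood at 5.911 in naive GASH:Sal 6, with the next array at 5.703, and that array also correlated less than most with its own group. Ptgs2 stood at 4.601 in naive Syrian 4, with the next array at 4.484.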

How the results depend on the processing

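Npas4 and Homer1 kept their direction for sound in both strains under every alternative. Over all alternatives 53 of 873 member values changed sign, and 87 of 1200 did so with 1 array left out, none of a difference past the adjusted threshold and none larger than 0.13 in size. In series B alone 7 values moved by more than the residual SD of the gene and changed sign: Arc in the GASH:Sal response (-0.07) and the interaction (-0.07), Nrn1 in the Syrian response (-0.08) and the interaction (0.16), Nptx2 between naive groups (0.22) and in the interaction (-0.11), and Plk2 in the averaged response (-0.08). The cause was not tested. The median of the 10 members in series A alone was 0.22 for the GASH:Sal response and 0.19 for the averaged response, and in series B alone 0.08 and 0.05, against 0.11 and 0.10 in both series.

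Counts of called genes were small and moved with the settings. For GASH:Sal sound (0 genes) they were 7 in series A alone, 1 each with genes above the median signal, trended and robust eBayes and array weights, 5 with a 1.5-fold rule, 889 unadjusted, 2 with the SAM-type statistic, and 0 to 1 with 1 array left out. For Syrian sound (0) they were 5 in series A, 2 with the 1.5-fold rule, 1323 unadjusted and 1 with SAM. For the strains after sound (0) they were 4 with the 1.5-fold rule, 1080 unadjusted and 1 with SAM. For the naive strains (0) they were 2 above the median signal, 1 with median centring, 18 with array weights, 64 without stimulated Syrian 4 and naive GASH:Sal 6, 5 with the 1.5-fold rule, 1201 unadjusted, 5 with SAM and 0 to 13 with 1 array left out, the 13 without naive GASH:Sal 6. The interaction (0) gave 10 with the 1.5-fold rule and 734 unadjusted. The averaged response (1) gave 444 in series A, 0 in series B, 14 with array weights, 2 without the 2 arrays named, 1474 unadjusted, 11 with SAM and 1 to 12 with 1 array left out, the 12 without stimulated GASH:Sal 6. The averaged strain difference (2) gave 0 without the series term, 0 in series A, 0 in series B, 0 with every probe set, 5 with centring, 4 with quantile normalisation, 19 with weights, 36 without the 2 arrays, 1 with the 1.5-fold rule, 1593 unadjusted, 10 with SAM and 0 to 36 with 1 array left out, the 36 without naive GASH:Sal 6.

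The planned SAM-type count took the median number of false genes over 100 permutations. After its counts had been seen, the mean number was added as a further setting; it gave 1 for GASH:Sal sound, 2 for the averaged response, 8 for the averaged strain difference and 0 for the other 4 comparisons. Which count is nearer the truth was not tested.

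On average same-numbered arrays did not deviate together (mean r of -0.07 to 0.01 per number, single pairs -0.21 to 0.12), which does not show that they were unpaired. With the replicate number as a block, the averaged strain difference called 0 genes, the interaction had 0 members at an unadjusted p under 0.05, and no member was called in any comparison.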
